A study of Mus musculus with 12 samples.

Results

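The muscle acetylcholine receptor and the proteins that gather it under a nerve ending were followed here through 10 genes in a mouse model of rhabdomyosarcoma, a cancer whose cells carry muscle features. The genes were the receptor subunits Chrna1, Chrnb1, Chrnd, Chrng and Chrne and the synaptic organisers Agrn, Lrp4, Musk, Dok7 and Rapsn. They were a fixed list, taken from the 19937 genes with a measured value, and all 10 were measured, each by 1 probe set.

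Each of 4 groups had 3 arrays, and all samples carried the alleles Myf5Cre, R26-LSL-rtTA and Col1a-Teto-hYAP1 S127A on a C57BL/6 background, so that doxycycline switches on a mutant human YAP1 in cells with a Myf5 history. CTL was hindlimb muscle of such mice without doxycycline. TUM was a day 0 tumour: after 4 weeks on doxycycline, donors gave interstitial hindlimb muscle cells that were grafted into the gastrocnemius of NOD/SCID hosts also kept on the drug. OFF3 and OFF6 were such tumours 3 and 6 days after doxycycline was taken from the host. The tumours grew inside host muscle, the hosts keep their own fibres, nerves and stroma, and the labels give neither ages nor how tumour was parted from muscle, nor whether replicates were separate animals. The p-values therefore measure only the spread between these samples, which may be technical.

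The receptor is a channel that opens when acetylcholine arrives from the motor nerve. Fetal and denervated muscle builds it with the gamma subunit (Chrng), and innervated adult muscle replaces gamma with epsilon (Chrne), while alpha, beta and delta (Chrna1, Chrnb1, Chrnd) belong to both forms. At the synapse, agrin (Agrn) binds Lrp4, which activates the kinase MuSK (Musk) with the help of the adaptor Dok7, and rapsyn (Rapsn) then clusters the receptors.

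Levels are log2 of the deposited intensity, and differences are on that scale, each with the standard error after ±. A gene was called changed at a limma p-value under 0.05 after Benjamini-Hochberg adjustment over all genes. In bulk tissue, fewer cells of a type and less RNA per cell cannot be told apart. Levels of different genes are not set against each other, since probe sets differ in brightness. No detection calls were used here, so whether a low reading was above background was not tested.

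Day 0 tumours differed from control muscle by the fetal subunit being high and the adult subunit low. Chrng was 7.31-fold higher in TUM than in CTL, and Chrne was 4.61-fold lower. Of the 10 genes, 7 were called lower in CTL, 2 higher (Chrne and Dok7) and 1 was not called (Musk). Over all genes 76.2% were called in this comparison, 45.9% higher and 30.3% lower in CTL, and the groups' arrays did not overlap in 82.7% of genes against 9 of the 10 here. The median difference of the 10 was -0.92 for CTL minus TUM, beside 0.15 over all genes. After doxycycline removal Chrng rose further, with smaller rises of Chrne: Chrng moved away from its level in control muscle and Chrne part of the way towards it.

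The sequences before 4 of the genes are shown because Chrng, Chrna1 and Musk are compared below with Chrne. They are the 200 bases before the annotated start, from RefSeq on GRCm38.p6, whose promoter table held entries for 7 of the 10 genes and none for Chrnd, Lrp4 and Rapsn. Capitals mark matches to CANNTG, the E-box that myogenic factors such as MyoD and myogenin recognise, and to CCGGAA or TTCCGG, the N-box core known from synaptic genes. Both strands were searched, CANNTG reading the same kind of word on either, and the motifs did not overlap. The stretches are chr1:87205611-87205810 on the plus strand for Chrng, chr2:73580339-73580538 on the minus strand for Chrna1, chr4:58285762-58285961 on the plus strand for Musk and chr11:70619195-70619394 on the minus strand for Chrne.
Chrng: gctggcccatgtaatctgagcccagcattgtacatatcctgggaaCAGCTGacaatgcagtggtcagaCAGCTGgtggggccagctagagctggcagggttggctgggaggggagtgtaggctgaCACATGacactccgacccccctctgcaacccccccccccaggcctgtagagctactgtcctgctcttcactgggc
Chrna1: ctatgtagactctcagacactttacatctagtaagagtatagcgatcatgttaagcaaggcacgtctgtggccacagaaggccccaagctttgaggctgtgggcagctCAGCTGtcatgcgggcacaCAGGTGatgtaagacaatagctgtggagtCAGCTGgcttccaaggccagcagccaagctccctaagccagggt
Musk: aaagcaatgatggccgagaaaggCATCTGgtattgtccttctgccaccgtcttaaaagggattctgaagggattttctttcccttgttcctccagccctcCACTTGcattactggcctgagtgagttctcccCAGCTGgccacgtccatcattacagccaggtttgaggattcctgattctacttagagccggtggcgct
Chrne: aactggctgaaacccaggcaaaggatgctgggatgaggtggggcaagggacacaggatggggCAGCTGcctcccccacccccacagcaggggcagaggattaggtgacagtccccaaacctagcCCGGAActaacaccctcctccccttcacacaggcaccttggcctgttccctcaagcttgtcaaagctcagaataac

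Chrng, Chrna1 and Musk each held 3 matches to CANNTG, as did Chrnb1, and Chrne held 1. The entries of Agrn held 0 and 1, and those of Dok7 held 1 and 0. A link between these matches and the levels was not tested. Of 32851 promoter entries of the same length, 58.2% held at least 1 match and 7.49% at least 3. The form CAGCTG stood 2 times before Chrng, at -155 and -132 from the start, and 2 times before Chrna1, at -92 and -44, and 0.916% of all entries held it at least 2 times. Chrne held 1 CAGCTG at -138 and 1 CCGGAA at -76, and 10.7% of all entries held the N-box core. No other entry of these genes matched the N-box core, which says only that these letters are not in this stretch. In RefSeq's gene order Chrnd and Chrng are neighbours on chromosome 1 with 0 genes listed between them.

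Chrng read 6.58, 6.26 and 6.25 in CTL, 9.21, 9.25 and 9.24 in TUM, 10.08, 10.14 and 10.08 in OFF3, and 11.06, 10.47 and 11.18 in OFF6. All 12 arrays followed the order CTL, TUM, OFF3, OFF6 with no overlap between any groups. Each neighbouring pair in that order was called different, by a spread estimated over all 12 arrays. TUM exceeded CTL by 2.87 ± 0.15 (adjusted p = 1.83e-09), OFF3 exceeded TUM by 0.87 ± 0.15 (adjusted p = 0.000715), and OFF6 exceeded OFF3 by 0.80 ± 0.15 (adjusted p = 0.00762). In a limma model of the OFF3 and OFF6 arrays alone, that last difference was not called (0.80 ± 0.17, adjusted p = 0.0939). At day 6 the fetal subunit was thus 3.19-fold above the day 0 tumours and 23.3-fold above control muscle. If the control readings of Chrng, with a mean of 6.36, are background, folds against CTL are lower bounds.

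Chrne read 9.51, 9.27 and 9.08 in CTL, 7.03, 7.10 and 7.11 in TUM, 7.42, 7.59 and 7.20 in OFF3, and 7.55, 7.59 and 7.47 in OFF6. The control arrays were high, and every tumour array lay below all of them. The adult subunit rose by 0.33 ± 0.11 at day 3 (adjusted p = 0.0428) and stood 0.45 ± 0.11 above TUM at day 6 (adjusted p = 0.00712), while OFF6 and OFF3 differed by 0.13 ± 0.11 (adjusted p = 0.557). OFF6 remained 3.36-fold below control muscle (adjusted p = 2e-08). With array weights the day 3 difference was 0.51 (adjusted p = 5.76e-06). The day 3 call did not pass under quantile normalisation (0.27, adjusted p = 0.0822), with arrays centred on their median (0.29, adjusted p = 0.0543), and without OFF3 replicate 2 (0.23, adjusted p = 0.182), TUM replicate 1 (0.30, adjusted p = 0.128) or any 1 of 6 others, CTL replicate 2, TUM replicates 2 and 3, OFF3 replicate 1 and OFF6 replicates 1 and 3 (adjusted p from 0.0519 to 0.0893).

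**Figure D1:**
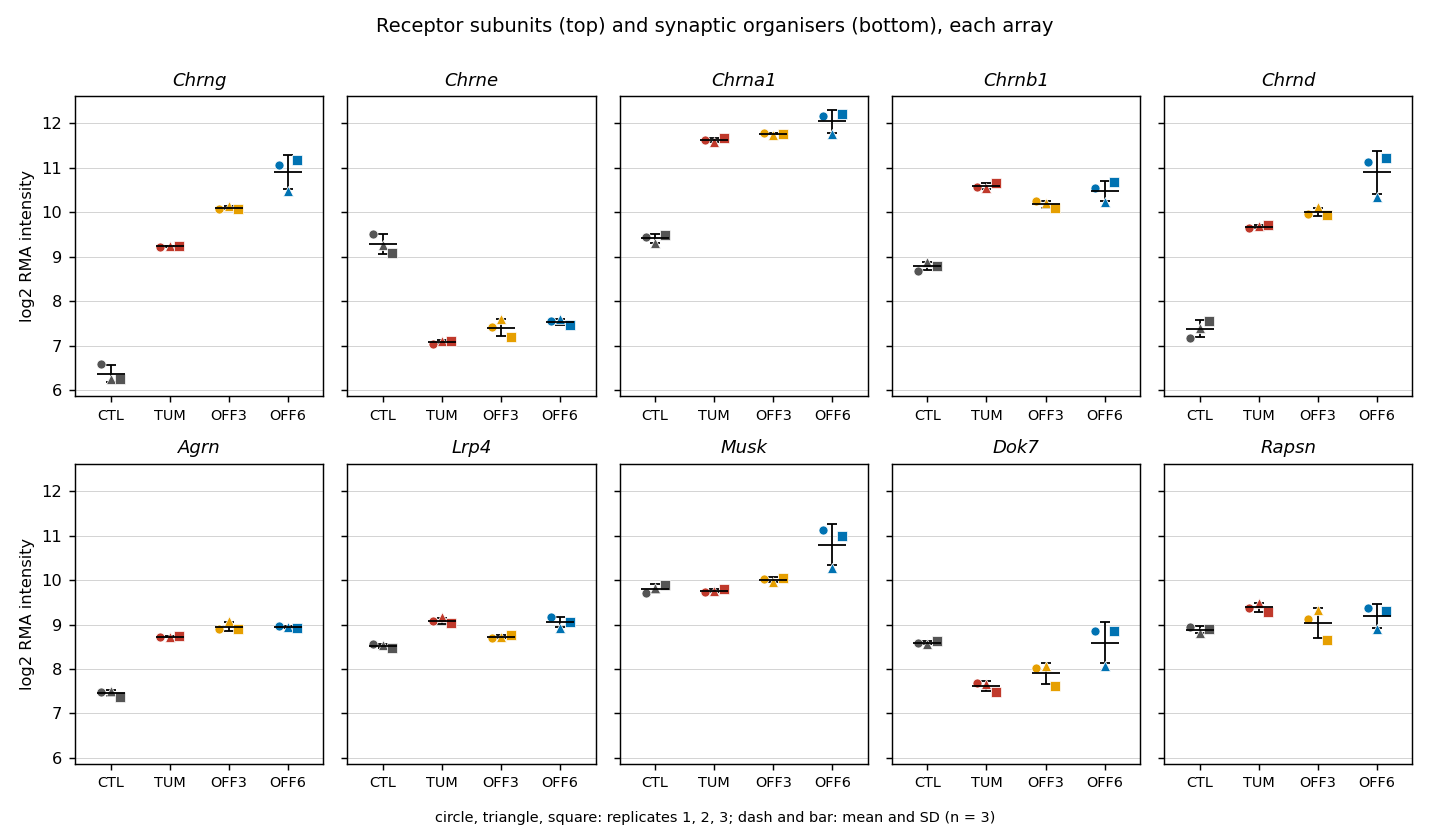
Log2 RMA intensity (vertical axis) of the 10 genes in each array of CTL, TUM, OFF3 and OFF6 (horizontal axis), with the mean and SD of 3 arrays. Chrng climbs from 6.36 in CTL to 10.90 in OFF6, Chrne is highest in CTL, and OFF6 replicate 2 (triangle) sits below the other OFF6 arrays for 8 of the 10 genes.

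The balance of the fetal and adult subunits was taken as Chrng minus Chrne within each array, read only for how it shifts between groups. It was -2.93, -3.01 and -2.83 in CTL, 2.18, 2.15 and 2.13 in TUM, 2.66, 2.54 and 2.88 in OFF3, and 3.51, 2.88 and 3.71 in OFF6. Group means were -2.92 ± 0.09, 2.15 ± 0.03, 2.69 ± 0.17 and 3.37 ± 0.43 (SD, n = 3), and no groups overlapped. OFF3 and OFF6 nearly touched, however, at 2.8783 in OFF3 replicate 3 and 2.8834 in OFF6 replicate 2. CTL differed from TUM by -5.07, a 33.7-fold shift of the ratio, and OFF6 from TUM by 1.22, a 2.33-fold shift the other way from control muscle. OFF3 exceeded TUM by 0.54 and OFF6 exceeded OFF3 by 0.68. An exact two-sided permutation test gave p = 0.1 for each of the 6 pairs of groups, the smallest that 3 against 3 arrays allow, and adjustment over the 6 leaves 0.1. Exact permutation of the F ratio gave p = 6.49e-05 over all 12 arrays and p = 0.00357 over the 9 tumour arrays, in both cases the smallest these arrangements can give. These p-values say only that the groups lay fully apart, and since Chrng and Chrne were known to differ before the test was chosen, they add no independent evidence.

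**Figure D2:**
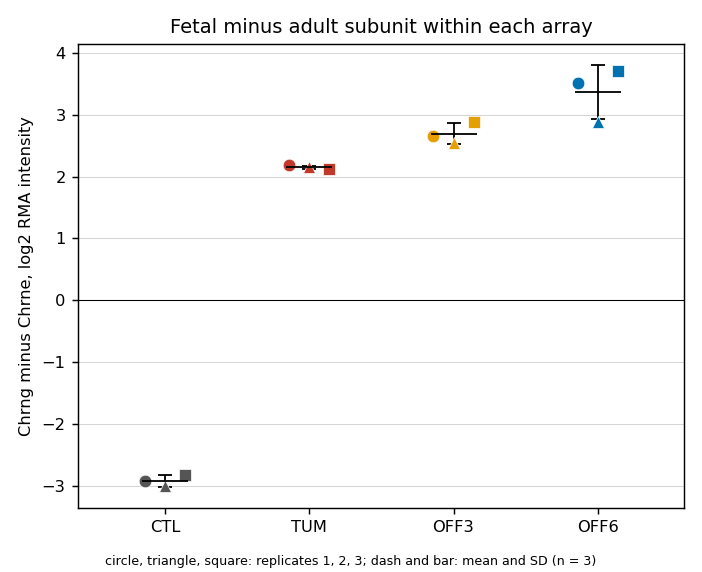
Chrng minus Chrne in log2 RMA intensity (vertical axis) for each array by group (horizontal axis), with mean and SD of 3 arrays. The CTL arrays lie between -3.01 and -2.83 and the tumour arrays between 2.13 and 3.71, rising from TUM to OFF6, where OFF6 replicate 2 is lowest of its group at 2.88.

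The subunits shared by both receptor forms were all higher in tumours than in control muscle, and after withdrawal they parted. Chrna1, which carries the main acetylcholine contact, read 9.44, 9.31 and 9.49 in CTL, 11.62, 11.59 and 11.68 in TUM, 11.78, 11.75 and 11.77 in OFF3, and 12.17, 11.75 and 12.22 in OFF6. It was 4.65-fold higher in TUM than in CTL (adjusted p = 7.18e-10) and rose by 0.42 ± 0.10 from day 0 to day 6 (adjusted p = 0.008). Neither step between neighbours within the tumours passed: OFF3 over TUM was 0.14 ± 0.10 (adjusted p = 0.393) and OFF6 over OFF3 was 0.28 ± 0.10 (adjusted p = 0.111). The latter passed without OFF6 replicate 2 (0.43, adjusted p = 0.000559).

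Chrnd, encoding the delta subunit, read 7.18, 7.40 and 7.56 in CTL, 9.65, 9.68 and 9.70 in TUM, 9.97, 10.11 and 9.95 in OFF3, and 11.14, 10.33 and 11.22 in OFF6. Its groups did not overlap, and it stood 4.91-fold higher in TUM than in CTL (adjusted p = 1.32e-07). The delta subunit had risen 2.33-fold by day 6 (1.22 ± 0.18, adjusted p = 0.000235), mostly after day 3 (0.89 ± 0.18 for OFF6 minus OFF3, adjusted p = 0.0122), and its day 3 difference of 0.33 ± 0.18 was not called (adjusted p = 0.217). That day 3 difference passed without OFF6 replicate 2 (adjusted p = 0.00954), and in a model of the 6 arrays alone (adjusted p = 0.00405).

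Chrnb1, the beta subunit, read 8.68, 8.87 and 8.80 in CTL, 10.56, 10.55 and 10.67 in TUM, 10.25, 10.20 and 10.09 in OFF3, and 10.54, 10.22 and 10.67 in OFF6. Control arrays were again lowest, by 3.50-fold against TUM (adjusted p = 4.21e-09), and the OFF3 arrays lay below all TUM arrays. The beta subunit fell by 0.41 on the log2 scale at day 3 (± 0.10, adjusted p = 0.00802), whereas at day 6 it differed from TUM by -0.11 ± 0.10 (adjusted p = 0.435), a value of 0.01 without OFF6 replicate 2. OFF6 minus OFF3 was 0.30 ± 0.10 (adjusted p = 0.0828) and passed without that array (0.43, adjusted p = 0.00176).

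Among the organisers, Musk and Dok7 rose by day 6, Agrn was slightly up at both times, and Lrp4 dipped at day 3. Musk, the receptor kinase, read 9.70, 9.83 and 9.90 in CTL, 9.74, 9.75 and 9.81 in TUM, 10.02, 9.96 and 10.06 in OFF3, and 11.12, 10.27 and 11.01 in OFF6. The OFF6 arrays were highest and overlapped no other group, while CTL and TUM overlapped and differed by 0.04 ± 0.16 (adjusted p = 0.82). OFF6 was 2.05-fold above TUM (1.03 ± 0.16, adjusted p = 0.000358), 1.99-fold above CTL (adjusted p = 0.00017), and above OFF3 by 0.79 ± 0.16 (adjusted p = 0.0127). The difference of OFF3 from TUM, 0.25 ± 0.16 (adjusted p = 0.32), passed without OFF6 replicate 2 (adjusted p = 0.00938), under array weights (adjusted p = 0.00678) and when the 6 arrays were modelled alone (adjusted p = 0.0102).

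Dok7, the adaptor that activates MuSK from inside the cell, read 8.58, 8.57 and 8.64 in CTL, 7.70, 7.67 and 7.48 in TUM, 8.02, 8.06 and 7.62 in OFF3, and 8.87, 8.06 and 8.86 in OFF6. With Chrne it was the other member called lower in day 0 tumours, by 1.97-fold (adjusted p = 0.000384). By day 6 it had risen by 0.98 ± 0.18 (adjusted p = 0.00125), and its OFF6 and CTL means were 8.60 and 8.60 (adjusted p = 0.996 for their difference). OFF6 replicates 1 and 3 read above all CTL arrays and replicate 2 below them, so this equality of means comes from unlike arrays, and without replicate 2 OFF6 minus CTL was 0.26 ± 0.12 (adjusted p = 0.0665).

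Agrn, encoding the nerve- and muscle-derived organiser agrin, read 7.49, 7.51 and 7.37 in CTL, 8.71, 8.73 and 8.74 in TUM, 8.89, 9.07 and 8.91 in OFF3, and 8.96, 8.94 and 8.93 in OFF6. It was 2.42-fold higher in TUM than in CTL (adjusted p = 1.36e-09) and rose by 0.23 ± 0.06 at day 3 (adjusted p = 0.0157) and 0.22 ± 0.06 at day 6 (adjusted p = 0.0207). These rises are small: the day 6 call was lost with arrays centred on their median (0.17, adjusted p = 0.0591) and without any TUM array or OFF6 replicate 1 (adjusted p from 0.053 to 0.0687), and the day 3 call without TUM replicate 1 (0.22, adjusted p = 0.056) or OFF3 replicate 2 (0.17, adjusted p = 0.0753).

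Lrp4, the agrin receptor, read 8.56, 8.54 and 8.47 in CTL, 9.07, 9.16 and 9.04 in TUM, 8.69, 8.72 and 8.76 in OFF3, and 9.17, 8.93 and 9.07 in OFF6. OFF3 lay apart from and below both other tumour groups. Lrp4 fell by 0.36 on the log2 scale at day 3 (± 0.07, adjusted p = 0.00139), was 0.33 ± 0.07 higher at day 6 than at day 3 (adjusted p = 0.0125), and at day 6 differed from TUM by -0.03 ± 0.07 (adjusted p = 0.739). It was 1.48-fold higher in TUM than in CTL (adjusted p = 8.28e-06), a difference for CTL minus TUM of -0.56 that was -0.29 with quantile normalisation (adjusted p = 0.00748), and OFF6 minus CTL was 0.53, or 0.32 with quantile normalisation (adjusted p = 0.00537) and 0.35 with centred arrays (adjusted p = 0.000922). Likewise, its OFF3 minus CTL difference of 0.20 ± 0.07 (adjusted p = 0.0206) was -0.03 with quantile normalisation (adjusted p = 0.8) and 0.03 with arrays centred on their median (adjusted p = 0.743), and was not called without CTL replicate 3 (adjusted p = 0.07) or OFF3 replicate 3 (adjusted p = 0.0524).

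Rapsn, the clustering scaffold, read 8.96, 8.81 and 8.90 in CTL, 9.38, 9.49 and 9.29 in TUM, 9.12, 9.33 and 8.66 in OFF3, and 9.38, 8.89 and 9.30 in OFF6. Its groups overlapped, except that all CTL arrays lay below all TUM arrays. TUM exceeded CTL by 1.41-fold (adjusted p = 0.0114), which under quantile normalisation was no longer called (-0.29 for CTL minus TUM, adjusted p = 0.133). Neither OFF3 (-0.35 ± 0.16, adjusted p = 0.123) nor OFF6 (-0.19 ± 0.16, adjusted p = 0.386) was called against TUM, and the day 3 value turned on single arrays: it was -0.49 without OFF3 replicate 2 (adjusted p = 0.0372), -0.16 without OFF3 replicate 3 (adjusted p = 0.488) and -0.09 under array weights (adjusted p = 0.312).

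**Figure D3:**
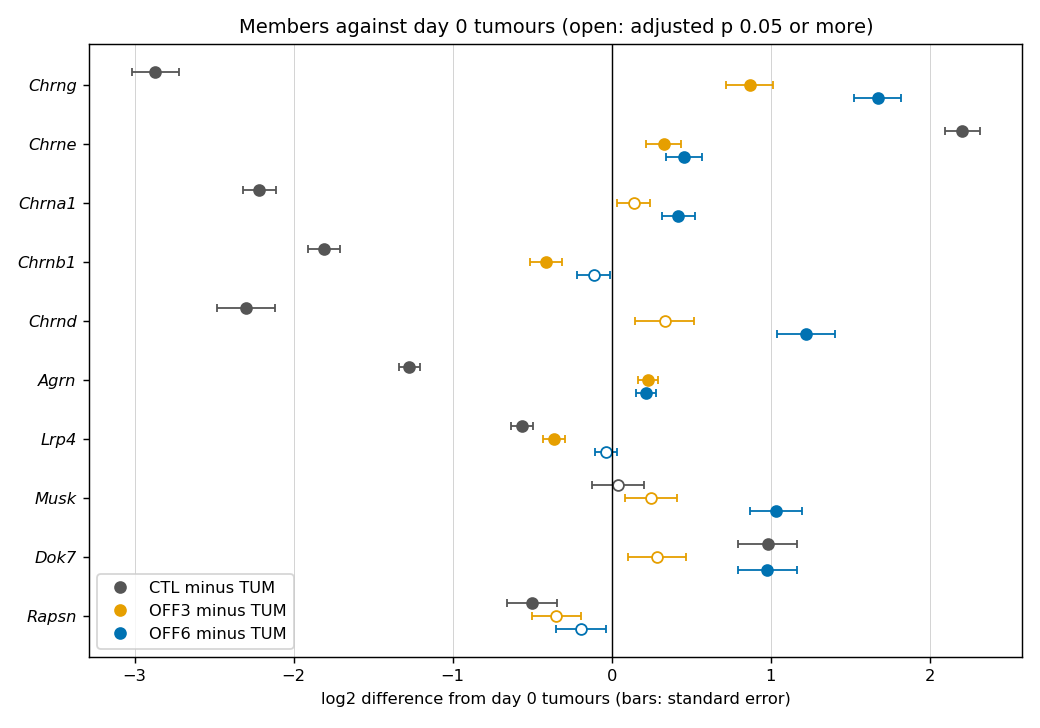
Log2 difference from day 0 tumours (horizontal axis, bars are standard errors) of each of the 10 genes in CTL, OFF3 and OFF6, all set against the same 3 TUM arrays. Filled points passed the test; CTL values run from -2.87 (Chrng) to 2.20 (Chrne), and OFF6 values from -0.19 (Rapsn) to 1.67 (Chrng).

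Counted over the list, 3 genes rose (Chrng, Chrne, Agrn) and 2 fell (Chrnb1, Lrp4) at day 3, where 29.4% of all genes were called, 13.4% higher and 16% lower. Their median difference was 0.24 beside 0.02 over all genes, and the arrays of the groups did not overlap in 8 of 10, against 44.8% of all genes. Without OFF6 replicate 2, Chrnd and Musk were called as well, giving 5 rises and 2 falls. In that fit 3265 genes were called higher and 3627 lower of all 19937. With array weights the members counted 7 and 2, where 6181 and 4994 of all genes were called, and without TUM replicate 1 they counted 1 and 2, where 2028 and 2570 were. At day 6, 7 rose (Chrng, Chrnd, Musk, Dok7, Chrne, Chrna1 and Agrn) and 0 fell, where 31.5% of all genes were called, 14.9% higher and 16.6% lower, with a median of 0.44 beside 0.05. The groups lay apart in 7 of 10 members and 48.5% of genes. By limma with an unadjusted p under 0.05, 7 rose and 0 fell too. Without OFF6 replicate 2 the called counts stayed at 7 and 0, where 3222 of all genes were called higher and 3664 lower. OFF3, OFF6 and CTL were all set against the same TUM arrays.

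Between day 3 and day 6, 5 members were called higher (Chrng, Chrnd, Lrp4, Musk and Dok7) and 0 lower, where 10.4% of all genes were called, 6.05% higher and 4.38% lower. The same 5 were those whose arrays lay apart, against 21.2% of all genes. Dok7 did so only narrowly, with 8.065 in OFF6 replicate 2 and 8.060 in the highest OFF3 array. With limma's unadjusted p under 0.05, 7 were higher and 0 lower. This comparison turns on the OFF6 arrays. OFF6 replicate 2 read below both other OFF6 arrays for 8 of the 10 members, the exceptions being Chrne and Agrn, and across genes it correlated on average at 0.991 with the other OFF6 arrays but at 0.995 with those of OFF3. Without it 7 members were called higher, Chrna1 and Chrnb1 joining, where the calls over all 19937 genes came to 2401 higher and 2473 lower, and 1.02, 1.17 and 1.05 were the differences of Chrng, Chrnd and Musk. Without OFF6 replicate 1 or replicate 3 a single call was left, Chrng (0.73, adjusted p = 0.0416, and 0.67, adjusted p = 0.0405), with 359 and 318 genes higher and 162 and 134 lower over all genes. The call of Dok7 was also lost without TUM replicate 1 or any OFF3 array. In a limma fit of the OFF3 and OFF6 arrays alone 0 of 10 passed, with 6 at an unadjusted p under 0.05. That fit called 19 genes higher and 11 lower over all genes.

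**Figure D4:**
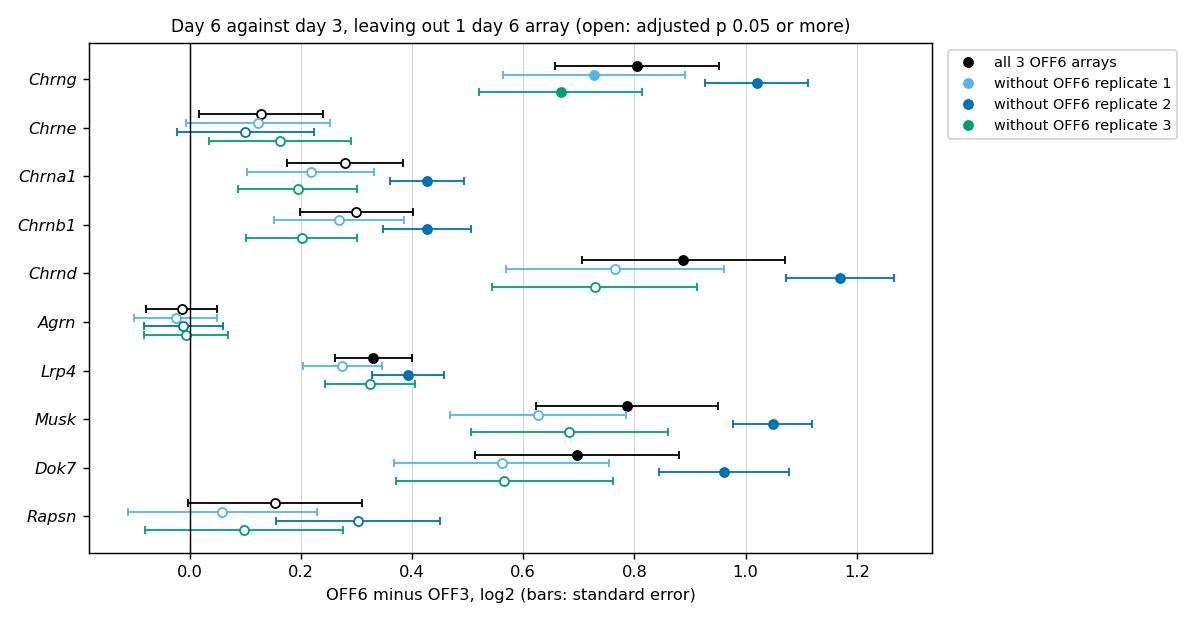
OFF6 minus OFF3 in log2 (horizontal axis, bars are standard errors) for each of the 10 genes with all arrays and with each OFF6 array left out. Filled points passed the test: leaving out replicate 2 widens the differences of Chrng, Chrnd, Musk and Dok7, and leaving out replicate 1 or 3 leaves Chrng as the single call.

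Set against control muscle, OFF3 was called higher in 6 members and lower in 2 (Chrne and Dok7), where 69.8% of all genes were called, 28.4% higher and 41.4% lower, and the arrays lay apart in 9 of 10 members and 72.4% of genes. Musk joined without OFF6 replicate 2 (0.21, adjusted p = 0.0126) and Rapsn without OFF3 replicate 3 (0.34, adjusted p = 0.0361). OFF6 was higher in 7 and lower in 1 (Chrne), where 64.2% were called, 28.1% higher and 36.1% lower, with groups apart in 8 of 10 members and 68.5% of genes. Rapsn joined the higher ones when OFF6 replicate 2 (0.46, adjusted p = 0.0183) or OFF3 replicate 3 (0.31, adjusted p = 0.0383) was left out. Relative to OFF6, control muscle thus held less of every receptor subunit but Chrne: OFF6 exceeded CTL 6.21-fold in Chrna1, 3.23-fold in Chrnb1 and 11.4-fold in Chrnd (largest adjusted p of the 3, 1.21e-08). Comparisons with CTL depend in part on scaling. The median of all genes was 0.15 for CTL minus TUM as deposited, 0.29 with arrays centred on their median and 0.04 with quantile normalisation. For CTL minus TUM, Lrp4 was -0.56 as deposited, -0.71 measured from the deposited all-gene median, -0.42 with centred arrays and -0.29 with quantile normalisation. Rapsn was -0.50, -0.65, -0.36 and -0.29 in the same order, and Musk, not called under any of these scalings, was 0.04, -0.10, 0.18 and 0.15. Centring also moved the share of higher calls among all called genes from 40.7% to 27.6% for OFF3 minus CTL and from 43.8% to 27.2% for OFF6 minus CTL.

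Markers of other tissue parts moved with these comparisons, and their part in the results was not tested. The mean log2 level of 16 mature fibre markers, from creatine kinase to the ryanodine receptor, ran from 12.95 to 13.00 in CTL, the highest of the 4 groups, 10.81 to 10.91 in TUM, 11.75 to 12.16 in OFF3 and 11.89 to 12.01 in OFF6. All 16 were called higher in CTL than in TUM, 14 of them rose at day 3 and 16 at day 6. Over all genes 45.9%, 13.4% and 14.9% were called higher in these comparisons. By group mean, Chrng, Chrna1, Chrnb1, Chrnd, Agrn, Lrp4 and Rapsn were lowest in CTL, where fibre markers were highest, and Chrne was highest there. Within the tumours, Chrng, Chrna1 and Chrnd read higher in OFF6 than in TUM, as did the fibre markers, while Chrnb1 did not. The mean of 8 fibroblast markers was 9.69 to 9.71 in TUM, 10.99 to 11.08 in OFF3, and in OFF6 11.10 in replicate 2 against 10.44 and 10.41 in replicates 1 and 3; in CTL it was 9.98 to 10.08. The mean of 7 immune markers was 6.96 to 7.13 in CTL, 9.14 to 9.15 in TUM, 9.23 to 9.27 in OFF3 and, in OFF6, 9.32 in replicate 2 against 8.93 and 8.87. In the OFF6 array where 8 members read lowest, the means of both lists therefore read highest of its group. Single markers did not all follow the means. In CTL minus TUM 5 fibroblast markers were called higher and 3 lower, and 2 immune markers higher and 5 lower, beside 45.9% and 30.3% of all genes. At day 6, 6 fibroblast markers rose and 1 fell, and 0 immune markers rose and 2 fell, beside 14.9% and 16.6%.

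Nerve and glial markers were looked at because Agrn is also made by motor neurons. The 12 motor axon markers, whose transcripts mostly stay in cell bodies outside the muscle, averaged 5.61 to 5.72 in CTL and 5.19 to 5.41 over the tumour arrays, and their highest single value was 6.56. Of these, 10 were called higher in CTL than TUM, 2 rose at day 6 and 0 fell (0 also at an unadjusted limma p under 0.05). Over all genes 45.9% were called higher and 30.3% lower in CTL than in TUM, and 14.9% rose at day 6. The axon markers' median for CTL minus TUM was 0.37. Dim genes as a whole also read higher in CTL, by a median of 0.19 in the lowest 25% of genes and 0.32 in the next 25%. Of 12 Schwann cell markers 9 were measured, averaging 7.39 to 7.55 in CTL and 7.26 to 7.76 in the tumours, and 2 rose at day 3 and 1 at day 6. In CTL minus TUM, 6 of the 9 were called higher and 3 lower. The mean of 6 epithelial markers was 6.38 to 6.51 in CTL, 7.28 to 7.37 in TUM, 6.89 to 6.97 in OFF3 and 6.83 to 6.99 in OFF6. In CTL minus TUM 2 of the 6 were called lower, the keratins Krt8 (-4.36) and Krt18 (-1.56), 2 were called higher, Krt5 (0.39) and Epcam (0.27), and 2 were not called, with a median of -0.05 over the list. Krt8 read 11.94 on average in TUM, 10.27 in OFF3, 9.61 in OFF6 and 7.57 in CTL.

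The neuronal nicotinic subunits, most of which belong to receptors of nerve cells, were looked at beside the muscle subunits. All 10 lay between 4.31 and 6.61 in every array. At day 3 and day 6 0 of 10 were called against TUM, where 29.4% and 31.5% of all genes were called. At an unadjusted limma p under 0.05, 1 and 2 were higher. All 10 were called higher in CTL than in TUM by small amounts (median 0.29), where 45.9% of all genes were called higher. They were led by Chrna4 (0.60 ± 0.13), Chrna2 (0.46 ± 0.07) and Chrna3 (0.44 ± 0.08). In CTL minus TUM the median of all genes was 0.19 in the 25% of genes lowest in level and 0.32 in the next 25%, against -0.22 in the top 25%.

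Other genes of the junction moved in both directions, as did genes as a whole. Of 16 scaffold and matrix genes 15 were measured. At day 3, 5 rose and 3 fell, where 13.4% of all genes were called higher and 16% lower. At day 6, 8 rose and 3 fell (median 0.35), beside 14.9% and 16.6% of all genes. In CTL minus TUM 6 were higher and 7 lower, beside 45.9% and 30.3%. Colq, the collagen tail that anchors acetylcholinesterase, read 7.13 to 7.22 in TUM, 8.09 to 8.23 in OFF3 and 8.84 to 9.04 in OFF6, against 8.01 to 8.10 in CTL. It had risen 3.44-fold at day 6 (adjusted p = 7.3e-09), past its level in control muscle. The esterase itself, Ache, which ends transmission by splitting acetylcholine, rose 1.81-fold at day 3 (adjusted p = 1e-04) and 2.49-fold at day 6 (adjusted p = 2.29e-06), and was 5.45-fold higher in CTL than in TUM. Lama4, a laminin chain, rose 1.95-fold at day 6, and the basement membrane gene Nid2 fell by 1.03 on the log2 scale and was 7.42-fold lower in CTL than in TUM (largest adjusted p of these 3 values, 2.51e-05). Dtnb, a dystrobrevin, and the cytoskeletal linker Macf1 were 3.19-fold and 2.59-fold lower in CTL.

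Of 18 signalling genes 17 were measured. At day 3, 3 rose and 5 fell, beside 13.4% and 16% of all genes. At day 6, 6 rose and 6 fell (median -0.04), beside 14.9% and 16.6%. In CTL, 6 were higher and 8 lower than in TUM, beside 45.9% and 30.3%. Nrg1, the neuregulin that signals through ErbB receptors, read 9.71 to 9.85 in TUM, 7.18 to 7.72 in OFF3 and 6.64 to 7.23 in OFF6, and in CTL it was 18.5-fold below TUM. It fell by 2.24 at day 3 and by 2.82 at day 6 on the log2 scale, a 7.06-fold fall (adjusted p = 1.08e-07). Its receptor gene Erbb3 went the other way, from 7.55 to 7.62 in TUM to 8.86 to 9.29 in OFF3 and 10.36, 9.38 and 10.20 in OFF6, and was 5.26-fold above TUM at day 6 (adjusted p = 1.66e-06). Erbb3 in CTL, at 7.42 to 7.63, differed from TUM by -0.09 ± 0.20 (adjusted p = 0.669). Erbb2, its partner receptor, was 3.82-fold lower in CTL than in TUM (adjusted p = 5.79e-07) and at day 6 differed from TUM by 0.49 ± 0.18 (adjusted p = 0.0565). Tnik, a kinase, and Pdzrn3, a ubiquitin ligase that acts on MuSK, rose 1.90-fold and 1.57-fold at day 6 and were 7.41-fold and 4.38-fold higher in CTL (largest adjusted p of these 4, 1.37e-05).

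**Figure D5:**
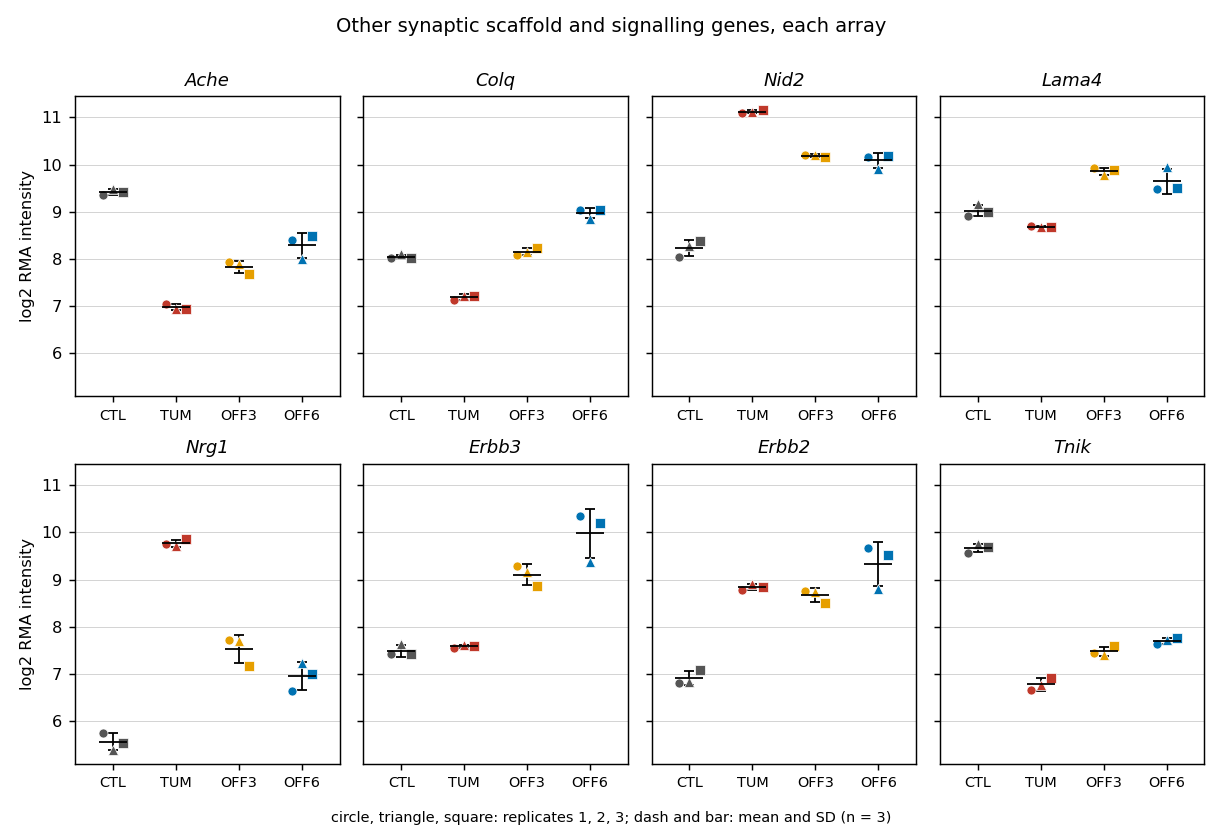
Log2 RMA intensity (vertical axis) in each array by group (horizontal axis), with mean and SD of 3 arrays, for 4 scaffold or matrix genes (top) and 4 signalling genes (bottom). Colq climbs from TUM to OFF6 past its CTL level, Erbb3 climbs from a TUM level near that of CTL, and Nrg1 drops from 9.77 in TUM to 6.95 in OFF6.

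Denervated fibres turn on Chrng, Chrna1 and Musk along their length. Other genes linked to the response to denervation were listed, 17 in number, and 16 were measured. Not all of them rise on denervation (Hdac9 and Dach2 do not), so the counts are no score of that response. At day 3, 9 rose and 1 fell, where 13.4% of all genes were called higher and 16% lower. At day 6, 8 rose and 1 fell (median 0.25), beside 14.9% and 16.6% of all genes. In CTL minus TUM 7 were higher and 7 lower, beside 45.9% and 30.3%. The list thus went both ways against control muscle, as all genes did. At day 6 the perinatal myosin Myh8 (14.5-fold), the embryonic myosin Myh3 (4.87-fold), the stress gene Gadd45a (3.07-fold) and the ubiquitin ligase Trim63 (2.73-fold) rose most. In CTL minus TUM, Trim63 was 12.4-fold higher, while Ankrd1 was 11.7-fold lower, Myh3 6.67-fold lower and Runx1 lower by a log2 difference of -3.46. The largest adjusted p of these 8 values was 6.77e-07.

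Genes whose levels followed those of members most closely over the 12 arrays were found by Pearson correlation, a description in which 4 groups rather than 12 independent points carry most of the spread. For Chrng these were Mymk (0.996), the myoblast fusion factor myomaker, then Myl4 (0.996), Peg3 (0.995), Svbp (0.995) and Dclk1 (0.994). Chrne was followed by Rfk (0.995), Arfgef1 (0.993), Adcyap1r1 (0.991), Ubxn2a (0.990) and Adipor1 (0.989), and Musk by Myl6b (0.984), the factor Tead4 (0.979), Hephl1 (0.979), Enah (0.977) and Folr1 (0.973). Within the 9 tumour arrays, Chrnd correlated with Musk at 0.988, with Dok7 at 0.967 and with Chrnb1 at 0.202.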

How the data were processed

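Expression was measured on 12 one-colour arrays, 3 in each of 4 groups. The deposited values are intensity on a linear scale per probe set, made by the authors with RMA per the submitters' processing notes; its version, the genome build and any detection filter are not given in the sources used here. RMA shares information across arrays and compresses differences of dim genes. The arrays had median intensities between 86.74 and 93.05. Of 34760 probe sets, 21640 carried 1 symbol in the platform annotation, 1321 several and 11799 none; only the first were used. Log2 was taken and, for 954 genes with several probe sets, only the brightest on average was used, leaving 19937 genes.

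Group means over the 12 arrays were estimated together in limma 3.58.1 (lmFit and default eBayes, R 4.3.3); the code was tested on simulated data. Tests were two-sided, with Benjamini-Hochberg adjustment over all genes within each of 6 comparisons. The median standard error was 0.086, and the number of arrays limits the precision. Exact permutation tests and promoter searches used Python 3.11.15 and figures matplotlib 3.10.9.

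The members and lists were chosen with earlier results of these data known. Named from each other list were up to 4 genes with the largest difference in OFF6 minus TUM and in CTL minus TUM, and for Chrng, Chrne and Musk the 5 best correlated genes, leaving out predicted genes; Krt8, Krt18, Krt5 and Epcam were chosen after their values were seen. No set test was run. Counts at an unadjusted p under 0.05 were made for members and lists alone, so no share of all genes stands beside them. Alternatives were averaged probe sets, a filter on level, 2 scalings, another variance model, array weights, a replicate block, models of 6 arrays, a threshold of 0.01 and leaving out each array.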

Additional observations from a re-analysis of the deposited data

Results flagged for a closer look

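The change from day 0 differed between the 2 times after doxycycline removal for 5 members, by the OFF6 minus OFF3 term of the same limma model, which is the test of that difference. The day 6 change exceeded the day 3 change by 0.80 ± 0.15 in Chrng (adjusted p = 0.00762), 0.89 ± 0.18 in Chrnd (adjusted p = 0.0122), 0.33 ± 0.07 in Lrp4 (adjusted p = 0.0125), 0.79 ± 0.16 in Musk (adjusted p = 0.0127) and 0.70 ± 0.18 in Dok7 (adjusted p = 0.0325). In each of the 5 all 3 OFF6 arrays read above all 3 OFF3 arrays, where the arrays lay apart in 21.2% of all genes. For Dok7 the gap was narrow, from 8.060 in the highest OFF3 array to 8.065 in OFF6 replicate 2. Without OFF6 replicate 1 or replicate 3, Chrng was the only member still called. In the model of the 6 arrays 0 of 10 passed, with 19 genes higher and 11 lower over all genes. Lrp4 alone of the 5 was called lower than TUM at day 3.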

How the results depend on the processing

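Of the 10 members' differences in the 6 comparisons, recomputed under 8 other settings where a fit was changed, 451 values kept their direction and side of the threshold, 10 lost and 11 gained a call, and 8 changed sign. With 1 array left out, 675 kept both, 28 lost and 9 gained a call, and 8 changed sign. Many of these values could not change sign. Averaged probe sets, the filter, the trended variance, the replicate block and models of 6 arrays leave a member's difference as it is. So does leaving out an array that belongs to neither group compared. None of the values that changed sign was called in the changed setting, and of them only Lrp4 in OFF3 minus CTL was called as reported. The sign changes were Chrnb1 in OFF6 minus TUM (0.034 with array weights, 0.013 without OFF6 replicate 2, range with 1 array left out -0.21 to 0.013), Lrp4 in OFF6 minus TUM (0.022 with quantile normalisation, 0.013 with array weights, 0.0016 without TUM replicate 2, range -0.090 to 0.027), Musk in CTL minus TUM (-0.0031 without CTL replicate 3, range -0.0031 to 0.095), Chrne in OFF6 minus OFF3 (-0.068 with array weights), Agrn in OFF6 minus OFF3 (0.043 without OFF3 replicate 2, range -0.047 to 0.043), Rapsn in OFF6 minus OFF3 (-0.035 without OFF3 replicate 3, range -0.035 to 0.30), Lrp4 in OFF3 minus CTL (-0.027 with quantile normalisation), Rapsn in OFF3 minus CTL (-0.011 with quantile normalisation, -0.020 with centred arrays) and Dok7 in OFF6 minus CTL (0.22 with array weights, 0.021 without CTL replicate 3, range -0.14 to 0.26). The cause was not tested.

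Members called at day 3 numbered 5, but 9 with array weights, 3 at an adjusted p under 0.01, and 3 to 7 with 1 array left out. In OFF6 minus OFF3 they numbered 5, but 0 of 10 in a model of the 6 arrays (limma; 6 at an unadjusted p under 0.05), 1 at an adjusted p under 0.01, and 1 to 7 with 1 array left out. Of the 32 other scaffold and signalling genes, 23 were called in OFF6 minus TUM, where 31.5% of all genes were, and 15 at an adjusted p under 0.01. In OFF6 minus OFF3, 11 were called, where 10.4% of all genes were. The latter count was 24 with array weights, 1 in the 6-array model, 1 at an adjusted p under 0.01 and 1 to 17 with 1 array left out. Quantile normalisation moved Chrng minus Chrne to 0.70 for OFF3 minus TUM, -5.15 for CTL minus TUM and 5.84 for OFF3 minus CTL. All-gene calls moved with array weights to 11175 (from 5868) in OFF3 minus TUM, 10545 (from 6279) in OFF6 minus TUM and 8424 (from 2080) in OFF6 minus OFF3, where the 6-array model called 30, an adjusted p under 0.01 467, and leaving out 1 array 452 to 4874; testing genes above the median level alone, which are fewer, gave 8401 (from 15199) in CTL minus TUM, 8165 (from 13910) in OFF3 minus CTL and 7923 (from 12790) in OFF6 minus CTL.

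Groups share replicate numbers, but same-numbered arrays did not deviate together (correlation of deviations -0.387 to 0.249), and the best match in another group had the same number in 10 of 36 cases. The replicate block changed no call of a member, with 5 calls at day 3, 7 at day 6, 9 in CTL minus TUM and 5 in OFF6 minus OFF3. The filter on level, with all 10 members above it, and the trended variance changed no call of a member either. Averaging probe sets is no check on the members, since each had 1 probe set and its difference could not move.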
